A study of Arabidopsis thaliana with 12 samples.

Results

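Glutathione S-transferases (GSTs) join the tripeptide glutathione to reactive or toxic molecules, or use it to reduce them, and plants hold a large family of them. The tau and phi classes are plant-specific and are best known for detoxifying herbicides and other foreign compounds and for their induction by stress signals. The lambda class holds thiol transferases, the zeta class an isomerase of tyrosine degradation, and the theta class enzymes with glutathione peroxidase activity. Glutathione conjugates are moved into the vacuole by ABCC transporters. The family was defined here by a list of 47 Arabidopsis genes, with 28 of the tau class (GSTU1 to GSTU28), 13 of the phi class (GSTF2 to GSTF14), 3 of the lambda class, 1 of the zeta class and 2 of the theta class, and the list follows the class names of the genes. Of these 47 genes, 42 were among the 26568 listed genes, some of which had no count in any library. GSTU2, GSTU4, GSTU10, GSTU13 and GSTU18 were not analysed here. GSTF5 (AT1G02940) lay between 0 and 0.637 CPM (reads counted per 1000000 reads of the library) in the 12 libraries and did not pass the filter on low counts, so 41 members were among the 19327 genes tested.

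The RNA came from roots of 2 natural accessions, the NH4+-tolerant Or-1 and the NH4+-sensitive Rak-2. Plants spent 7 d on soil and 5 d on a nitrate solution, and then 1 d on a solution with (NH4)2SO4 at 1 mM or one with Ca(NO3)2 at 1 mM. The study's methods add a nitrogen-free step before this last day and state that calcium was set to the same level in both solutions. NH4+ was given as a sulfate and NO3- as a calcium salt, so sulfate supply and nitrogen source cannot be told apart. The 4 groups were Or-1 under NH4+, Or-1 under NO3-, Rak-2 under NH4+ and Rak-2 under NO3-, with 3 biological replicates each, and each ecotype stands for 1 accession. Neither is Columbia, the accession of the reference genome, and the effect of sequence or copy-number differences on the counts was not tested.

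Between 16005610 and 22388738 reads were counted per library. Levels are given as CPM scaled by edgeR's trimmed mean of M values (TMM), and levels of different genes were compared as RPKM, that is CPM per kilobase of the deposited gene length. All 8 root markers examined were detected in every library, and their sum was 805 to 913 CPM in Or-1 under NH4+, against 1704 to 2178 CPM in Or-1 under NO3-, and 959 to 1193 CPM in Rak-2 under NH4+, against 1862 to 2025 CPM in Rak-2 under NO3-. PHO1, a phosphate exporter of the root vasculature, made up most of that sum. Of 10 shoot photosynthesis markers, 9 were among the listed genes, and their sum varied widely within groups. It was 4.56 to 312 CPM in Or-1 under NH4+, 162 to 726 CPM in Or-1 under NO3-, 241 to 1068 CPM in Rak-2 under NH4+ and 14 to 446 CPM in Rak-2 under NO3-. The part of these differences in the GST results was not tested, except where a value is given beside a result. The common biological coefficient of variation was 0.223 in Or-1 under NH4+, 0.241 in Or-1 under NO3-, 0.158 in Rak-2 under NH4+ and 0.343 in Rak-2 under NO3-, so the libraries of Rak-2 under NO3- were the most variable.

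The phi class carried most of the GST transcripts in every group. Phi genes made up 85.6% ± 0.592 of the summed RPKM of the family in Or-1 under NH4+, 84.2% ± 1.73 in Or-1 under NO3-, 78.1% ± 1.29 in Rak-2 under NH4+ and 85.1% ± 2.13 in Rak-2 under NO3- (SD, n = 3 each). Tau genes, with 23 members in the sum against 13 of the phi class, made up 11.7% ± 0.646 in Or-1 under NH4+, 11.7% ± 1.16 in Or-1 under NO3-, 18.2% ± 1.02 in Rak-2 under NH4+ and 11.6% ± 1.82 in Rak-2 under NO3-. The tau genes GSTU2, GSTU4, GSTU10, GSTU13 and GSTU18 are not in these sums. The tau share was thus highest in Rak-2 under NH4+, where the summed tau level was 1127 to 1431 RPKM, against 737 to 764 RPKM in Rak-2 under NO3-. The summed level of all 42 genes was 8772 to 9459 RPKM in Or-1 under NH4+, against 4324 to 4574 RPKM in Or-1 under NO3-, without overlap. In Rak-2 it was 5833 to 8276 RPKM under NH4+, against 5452 to 7700 RPKM under NO3-, and these ranges overlapped. The family took a mean of 1.20% of all counts in Or-1 under NH4+, 0.566% in Or-1 under NO3-, 0.989% in Rak-2 under NH4+ and 0.796% in Rak-2 under NO3-. In bulk roots, a change in the number of cells that express a gene and a change in RNA per cell cannot be told apart.

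**Figure D1:**
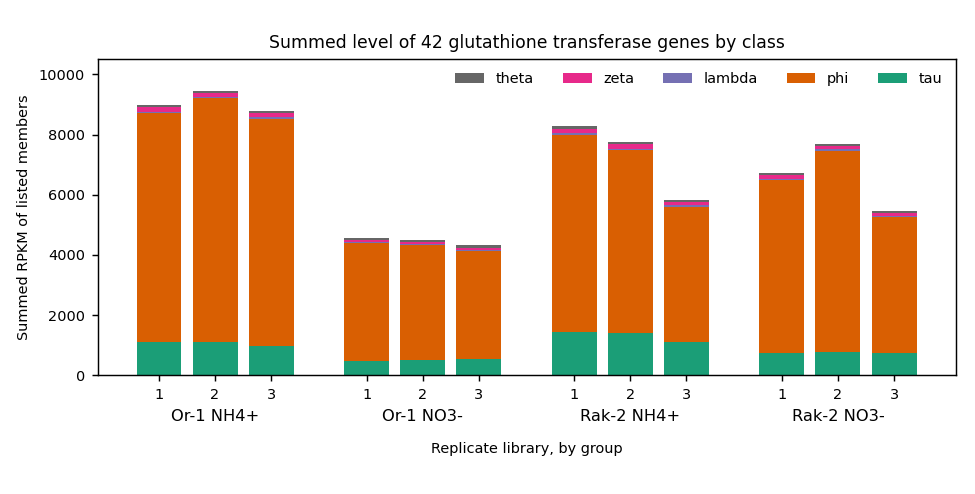
Summed RPKM of the 42 GST genes with counts (y axis) in each of the 12 replicate libraries (x axis, grouped by ecotype and nitrogen source), stacked by class. The phi class fills most of every bar, and the 3 bars of Or-1 under NH4+ (8772 to 9459 RPKM) stand clear of those of Or-1 under NO3- (4324 to 4574 RPKM), while the bars of Rak-2 overlap.

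The phi genes with the highest mean level over the 4 groups were GSTF9 (1750.3 RPKM), GSTF10 (1196 RPKM) and GSTF2 (886 RPKM). GSTF9 (AT2G30860) and its tandem neighbour GSTF10 (AT2G30870), whose proteins are 80.0% identical, were high in all 4 groups. GSTF9 measured 2662, 2625 and 2119 CPM in Or-1 under NH4+, against 1797, 1819.8 and 1693 CPM in Or-1 under NO3-, and 2962, 2654 and 1876 CPM in Rak-2 under NH4+, against 1837, 2329.8 and 1526 CPM in Rak-2 under NO3-. Its Or-1 groups did not overlap, its Rak-2 groups did, and neither response was called (log2 fold change 0.48 ± 0.21 in Or-1 and 0.40 ± 0.21 in Rak-2, ± SE). GSTF10 measured 1633, 1886 and 1520.4 CPM in Or-1 under NH4+, against 1221, 1124 and 1036 CPM in Or-1 under NO3-, and 1715, 1642 and 1202 CPM in Rak-2 under NH4+, against 1148, 1272 and 847 CPM in Rak-2 under NO3-. It showed the same arrangement, with log2 fold changes of 0.58 and 0.48 that were not called.

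Among tau genes, GSTU19 (189.5 RPKM), GSTU14 (151 RPKM) and GSTU20 (119 RPKM) had the highest mean levels. GSTU19 (AT1G78380), an abundant enzyme with activity towards many foreign substrates, measured 227, 277 and 327 CPM in Or-1 under NH4+, against 124, 142 and 188 CPM in Or-1 under NO3-, and 234, 209 and 227 CPM in Rak-2 under NH4+, against 198, 173 and 223 CPM in Rak-2 under NO3-. Only its Or-1 groups were apart, and the log2 fold change there, 0.87 ± 0.18, stayed under the threshold of 1 (adjusted p = 0.00646, from the quasi-likelihood test of edgeR, adjusted after Benjamini and Hochberg and written as edgeR adjusted p from here on). The tested members with the lowest mean levels were GSTU3 (0.284 RPKM), GSTU15 (0.474 RPKM) and GSTU16 (0.942 RPKM), also of the tau class.

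The first comparison asked which GST genes respond to NH4+ in the tolerant ecotype. A gene was called when its adjusted p was under 0.05 and its log2 fold change exceeded 1 in size. In Or-1, 17 of the 41 members were higher under NH4+ than under NO3- and 3 were lower, where 5.26% of all tested genes were higher and 3.6% lower. The median log2 fold change of the members was 0.67, against -0.04 over all tested genes. The compared groups did not overlap for 30 of 41 members, which held for 36.5% of all tested genes. By class, 11 of 23 tau genes were higher and 1 lower, 5 of 12 phi genes were higher and 2 lower, and GSTL1 of the lambda class was higher. No zeta or theta gene was called.

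In Rak-2, 7 of the 41 members were higher under NH4+ and 1 was lower, beside 2.69% of all tested genes higher and 3.4% lower. Here 6 of the 7 were tau genes. The median log2 fold change of the members was 0.27, against -0.01 over all genes. The groups did not overlap for 15 members, a condition met by 32.1% of all genes. The 6 genes higher in both ecotypes were GSTU7, GSTU8, GSTU22, GSTU24, GSTU25 and GSTF8, which is 35.3% of the 17 in Or-1 and 85.7% of the 7 in Rak-2. GSTU20 was called in Rak-2 alone, and 11 genes were called in Or-1 alone (GSTU1, GSTU3, GSTU11, GSTU12, GSTU15, GSTU16, GSTF2, GSTF3, GSTF6, GSTF7 and GSTL1). A call in 1 ecotype alone is not by itself a difference between the ecotypes, for which the test is given further on.

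**Figure D2:**
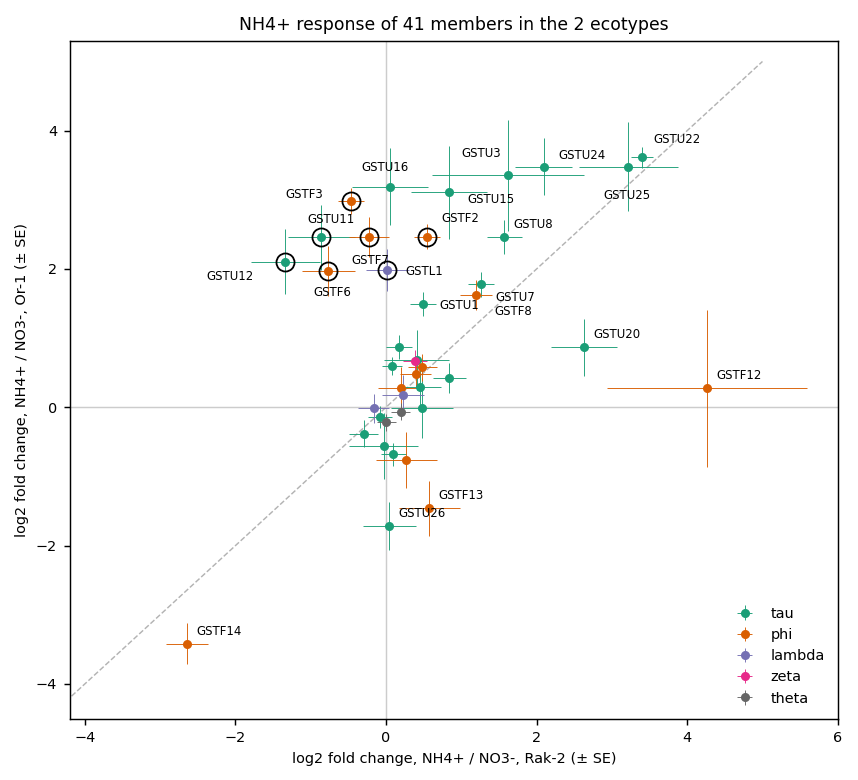
Log2 fold change of NH4+ over NO3- in Or-1 (y axis) against that in Rak-2 (x axis) for the 41 tested members, with SE bars, coloured by class. The dashed line marks equal responses, rings mark the 7 members with a called difference of response, and names are given for members called in either ecotype and for GSTF12. GSTU22, GSTU25, GSTU7 and GSTF8 lie near the line, and the ringed genes lie well above it.

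The genes that rose in both ecotypes were led by GSTU22, GSTU25 and GSTU24. GSTU22 (AT1G78340) had 94.3, 92.2 and 89.6 CPM in Or-1 under NH4+, against 7.77, 7.07 and 7.68 CPM in Or-1 under NO3-, and 93.3, 126 and 113 CPM in Rak-2 under NH4+, against 10.12, 12.3 and 9.02 CPM in Rak-2 under NO3-. Every NH4+ library was far above every NO3- library in both ecotypes. The log2 fold change was 3.62 ± 0.15 in Or-1 (edgeR adjusted p = 4.81e-07) and 3.40 ± 0.15 in Rak-2 (edgeR adjusted p = 1.61e-06), the largest called increase of a member in each ecotype. GSTU24 and GSTU25 are neighbours on chromosome 1 with 78.3% identical proteins, and both are known to act on the explosive trinitrotoluene. GSTU24 (AT1G17170) had 74.8, 83.5 and 66.1 CPM in Or-1 under NH4+, against 8.88, 6.38 and 4.9 CPM in Or-1 under NO3-, and 123, 127 and 80.8 CPM in Rak-2 under NH4+, against 45.1, 16.5 and 16.1 CPM in Rak-2 under NO3-. One library of Rak-2 under NO3-, replicate 1, was well above the other two of its group. The log2 fold change of GSTU24 was 3.48 ± 0.41 in Or-1 (edgeR adjusted p = 0.000221) and 2.1 ± 0.38 in Rak-2 (edgeR adjusted p = 0.00549). GSTU25 (AT1G17180) was less abundant, with 23, 20.4 and 9.24 CPM in Or-1 under NH4+, against 1.93, 2.34 and 0.485 CPM in Or-1 under NO3-, and 10.8, 8.11 and 7.79 CPM in Rak-2 under NH4+, against 2.09, 0.517 and 0.383 CPM in Rak-2 under NO3-. Its groups were also apart in both ecotypes, with log2 fold changes of 3.48 ± 0.64 and 3.22 ± 0.66 (edgeR adjusted p = 0.00353 in Or-1 and 0.0106 in Rak-2).

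GSTU8, GSTU7 and GSTF8 rose in both ecotypes by smaller amounts. GSTU8 (AT3G09270) reached 112 to 144 CPM in Or-1 under NH4+, against 15.5 to 31.7 CPM under NO3-, and 168 to 235 CPM in Rak-2 under NH4+, against 59.9 to 73.3 CPM under NO3- (log2 fold changes 2.46 and 1.57). GSTU7 (AT2G29420) reached 55.9 to 70.9 CPM in Or-1 under NH4+, against 14.9 to 21 CPM under NO3-, and 89.4 to 124 CPM in Rak-2 under NH4+, against 38.6 to 52.8 CPM under NO3- (1.78 and 1.27). GSTF8 (AT2G47730), long used as a reporter of early stress responses in roots, reached 1170.1 to 1804 CPM in Or-1 under NH4+, against 388 to 546 CPM under NO3-, and 675 to 867 CPM in Rak-2 under NH4+, against 280.2 to 405 CPM under NO3- (1.63 and 1.20). All 8 calls in Rak-2 were made in each fit that left out 1 of its 6 libraries, and so were 18 of the 20 calls in Or-1. When edgeR's glmTreat tested whether a change exceeded a log2 fold change of 1 in place of both thresholds, GSTU22 was the gene of these 6 still called in Rak-2.

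The promoters of 5 of these 6 genes hold TGACG, the core of the as-1 element that TGA transcription factors bind, and they are shown for that reason. A promoter is taken here as the 250 bases before the annotated gene start in RefSeq TAIR10.1, which is the Columbia sequence and not that of Or-1 or Rak-2. TGACG on either strand occurs in 18.6% of the promoters of 27443 protein-coding genes and in 15 of the 47 members (31.9%), with 11 of 28 in the tau class. TTGAC, the core of the W box that WRKY factors bind, occurs in 44.9% of all promoters and in 28 of the 47 members (59.6%). The motifs overlap with each other in 4 letters when they lie on the same strand (TTGACG). A match is a string of letters and was not tested as a binding site. In the following sequences, capitals mark TGACG and TTGAC, also where they read on the other strand as CGTCA and GTCAA. The windows are chr2:12618900-12619149, minus strand (GSTU7), chr1:29474004-29474253, minus strand (GSTU22), chr1:5869293-5869542, plus strand (GSTU24), chr1:5871774-5872023, plus strand (GSTU25) and chr2:19556076-19556325, plus strand (GSTF8).
GSTU7: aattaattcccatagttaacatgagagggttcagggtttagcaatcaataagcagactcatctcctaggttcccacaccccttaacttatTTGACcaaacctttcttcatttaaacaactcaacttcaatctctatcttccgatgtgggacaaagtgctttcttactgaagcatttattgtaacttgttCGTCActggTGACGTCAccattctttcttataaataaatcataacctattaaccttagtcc
GSTU22: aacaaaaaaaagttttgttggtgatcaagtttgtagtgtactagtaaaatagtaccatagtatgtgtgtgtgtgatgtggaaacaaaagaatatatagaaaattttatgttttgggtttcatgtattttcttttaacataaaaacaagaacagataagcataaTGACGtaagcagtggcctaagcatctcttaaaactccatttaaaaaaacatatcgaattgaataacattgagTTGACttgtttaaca
GSTU24: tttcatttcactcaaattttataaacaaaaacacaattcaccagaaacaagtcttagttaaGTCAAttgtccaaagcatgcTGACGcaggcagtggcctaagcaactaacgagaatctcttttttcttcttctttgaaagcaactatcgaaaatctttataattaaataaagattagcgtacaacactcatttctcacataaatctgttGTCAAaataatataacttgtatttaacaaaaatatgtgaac
GSTU25: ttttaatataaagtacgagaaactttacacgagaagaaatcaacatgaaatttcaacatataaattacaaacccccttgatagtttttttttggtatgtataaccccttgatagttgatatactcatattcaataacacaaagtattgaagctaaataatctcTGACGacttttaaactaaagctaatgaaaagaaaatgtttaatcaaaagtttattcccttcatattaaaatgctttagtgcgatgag
GSTF8: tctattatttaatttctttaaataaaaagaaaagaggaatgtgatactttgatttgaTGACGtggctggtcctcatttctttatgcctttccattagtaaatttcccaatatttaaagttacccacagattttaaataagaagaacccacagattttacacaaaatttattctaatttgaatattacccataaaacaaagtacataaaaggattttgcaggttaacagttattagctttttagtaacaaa

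GSTU7 holds 3 copies of TGACG, of which a pair overlap on opposite strands, and the other four hold 1 copy each. GSTU8, the 6th gene higher in both ecotypes, holds neither motif in this window. Of the 17 genes higher in Or-1, 9 hold TGACG, and of the 17 members called in no comparison, 4 do. GSTU22 and GSTU24, which lie in different tandem clusters, share a run of 15 bases just downstream of TGACG, gcagtggcctaagca, which occurs in these 2 promoters alone among the 27443. This run was noticed in the sequences after the responses of both genes were known. Among the 1081 pairs of members, GSTU3 and GSTU11 alone share a longer run, a stretch of 16 bases made almost wholly of A that 29 promoters hold.

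GSTF14 (AT1G49860) went the other way and was the most strongly lowered member in both ecotypes. It measured 35.7, 43.4 and 38.9 CPM in Or-1 under NH4+, against 257, 397 and 605 CPM in Or-1 under NO3-, and 243, 224 and 227 CPM in Rak-2 under NH4+, against 1282, 1846 and 1194 CPM in Rak-2 under NO3-. No group overlapped another, with the lowest values in Or-1 under NH4+ and the highest in Rak-2 under NO3-. Its log2 fold change was -3.42 ± 0.29 in Or-1 (edgeR adjusted p = 2.76e-05) and -2.64 ± 0.28 in Rak-2 (edgeR adjusted p = 0.000249). It was also lower in Or-1 than Rak-2 under NH4+ (-2.56 ± 0.28, edgeR adjusted p = 8.28e-05) and under NO3- (-1.78 ± 0.27, edgeR adjusted p = 0.000966). The sum of the root markers, led by PHO1, was also lower under NH4+ in both ecotypes. Of the 8 root markers, PHO1 (log2 fold change -1.457) and WER (-1.605) were called lower under NH4+ in Or-1, and none was called in Rak-2. The WER call was lost without replicate 2 or 3 of Or-1 under NH4+ or replicate 1 or 2 of Or-1 under NO3- (edgeR adjusted p = 0.0680 to 0.0903). The part of the root markers in the GSTF14 result was not tested.

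GSTU20, whose protein is known to bind the jasmonate-conjugating enzyme JAR1, was the member called in Rak-2 alone. GSTU20 (AT1G78370) had 387, 294 and 167 CPM in Rak-2 under NH4+, against 39.4, 66.8 and 30.7 CPM in Rak-2 under NO3-, and 217, 134 and 70.7 CPM in Or-1 under NH4+, against 65.3, 83.5 and 82.3 CPM in Or-1 under NO3-. The Rak-2 groups were clearly apart (log2 fold change 2.63 ± 0.43, edgeR adjusted p = 0.00334), whereas replicate 3 of Or-1 under NH4+ lay within the range of Or-1 under NO3- (0.87 ± 0.41, edgeR adjusted p = 0.19). The response of Or-1 minus that of Rak-2 was -1.76 ± 0.58 and was not called (edgeR adjusted p = 0.153). In both NH4+ groups the level was highest in replicate 1 and lowest in replicate 3.

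The difference of response, that is the log2 fold change of NH4+ over NO3- in Or-1 minus that in Rak-2, was called for 7 members, all of them more positive in Or-1, where 1.08% of all tested genes were called in that direction and 0.15% in the other. These were GSTF3, GSTF2, GSTF6 and GSTF7 of the phi class, GSTU11 and GSTU12 of the tau class and GSTL1. In the other direction edgeR called no member, while 19 of 41 members had an unadjusted p under 0.05 in either direction, as did 18.0% of all tested genes, and DESeq2 called 3 members there (GSTU20, GSTU26 and GSTF13). Of the 8 shoot photosynthesis markers tested, all 8 had a negative difference (median -3.18) and none was called, and their part in these results was not tested.

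GSTF3 (AT2G02930) showed the largest called difference. It measured 52.4, 54.6 and 50.4 CPM in Or-1 under NH4+, against 6.29, 8.19 and 5.47 CPM in Or-1 under NO3-, and 29.8, 28.5 and 20.0 CPM in Rak-2 under NH4+, against 34.1, 41.1 and 32.9 CPM in Rak-2 under NO3-. In Or-1 the groups were far apart, while in Rak-2 the NH4+ libraries lay somewhat below the NO3- libraries, also without overlap. Or-1 had a log2 fold change of 2.98 ± 0.19 and Rak-2 one of -0.47 ± 0.18, and the difference of 3.45 ± 0.26 had an edgeR adjusted p of 0.00064. GSTF2 (AT4G02520), a phi enzyme known to bind camalexin and other small heterocyclic molecules, was far more abundant per length (886 RPKM, against 29 RPKM for GSTF3, as means over the 4 groups). It measured 2151, 2268 and 2383 CPM in Or-1 under NH4+, against 407, 463 and 359 CPM in Or-1 under NO3-, and 1748, 1552 and 1209 CPM in Rak-2 under NH4+, against 899.8, 1145 and 1045 CPM in Rak-2 under NO3-. NH4+ libraries were above NO3- libraries in both ecotypes, where Or-1 had a log2 fold change of 2.47 ± 0.18 and Rak-2 one of 0.55 ± 0.17 that was not called, and the difference was 1.92 ± 0.24 (edgeR adjusted p = 0.00804).

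GSTF6 and GSTF7 are neighbours on chromosome 1. GSTF6 is known to act in the synthesis of camalexin, the main antimicrobial indole compound of Arabidopsis. GSTF6 (AT1G02930) had 1244, 1251 and 1389.8 CPM in Or-1 under NH4+, against 511, 278 and 199 CPM in Or-1 under NO3-, and 426, 394 and 253 CPM in Rak-2 under NH4+, against 810.3, 639 and 377 CPM in Rak-2 under NO3-. The Or-1 groups were apart, and in Rak-2 replicate 3 under NO3- lay within the range under NH4+. Its log2 fold change was 1.98 ± 0.36 in Or-1 and -0.77 ± 0.35 in Rak-2, with a difference of 2.74 ± 0.50 (edgeR adjusted p = 0.0275). GSTF7 (AT1G02920) had 995, 1143 and 1419 CPM in Or-1 under NH4+, against 269.9, 206 and 169 CPM in Or-1 under NO3-, and 594, 593 and 432 CPM in Rak-2 under NH4+, against 808, 696 and 390.3 CPM in Rak-2 under NO3-. It behaved alike, with 2.46 ± 0.28 in Or-1, -0.23 ± 0.27 in Rak-2 and a difference of 2.69 ± 0.39 (edgeR adjusted p = 0.00986).

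The reads of these phi genes may have been divided between near-identical copies. The proteins of GSTF6 and GSTF7 are 93.3% identical and those of GSTF2 and GSTF3 92.5%, the only pairs of members above 90%. With the counts of each pair summed, GSTF6 plus GSTF7 gave a log2 fold change of 2.19 ± 0.33 in Or-1, -0.47 ± 0.31 in Rak-2 and a difference of 2.65 ± 0.45 (edgeR adjusted p = 0.0192). GSTF2 plus GSTF3 gave 2.48 ± 0.18 in Or-1, 0.52 ± 0.17 in Rak-2 and a difference of 1.96 ± 0.24 (edgeR adjusted p = 0.00835). Both differences were called at the level of the pair. The sum of GSTF2 and GSTF3 was nearly all GSTF2 (means of 2268 and 52.4 CPM in Or-1 under NH4+), so its call does not test GSTF3. The separate values of GSTF3 remain uncertain because it is the minor gene of its pair.

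The promoter of GSTF7 (chr1:659981-660230, minus strand) is shown because it holds 3 copies of TTGAC, with capitals as before. Of the 7 genes with a called difference, 6 hold TTGAC (all but GSTF2) and 2 hold TGACG (GSTU11 and GSTF3). TTGAC is also held by 11 of the 17 members called in no comparison, beside 59.6% of all members and 44.9% of all promoters.
GSTF7: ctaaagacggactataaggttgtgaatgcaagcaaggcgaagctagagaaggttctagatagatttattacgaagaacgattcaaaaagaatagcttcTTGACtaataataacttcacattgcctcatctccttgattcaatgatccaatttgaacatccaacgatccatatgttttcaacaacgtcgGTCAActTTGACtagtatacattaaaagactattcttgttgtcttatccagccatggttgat

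GSTU11 and GSTU12 are also neighbours, but their proteins are 44.6% identical. GSTU12 (AT1G69920) had 71, 71.3 and 44.2 CPM in Or-1 under NH4+, against 21.2, 16.7 and 5.43 CPM in Or-1 under NO3-, and 20.9, 16.2 and 15.3 CPM in Rak-2 under NH4+, against 59.9, 50.3 and 22.2 CPM in Rak-2 under NO3-. It was higher under NH4+ in all Or-1 libraries and lower under NH4+ in all Rak-2 libraries. The log2 fold change was 2.11 ± 0.47 in Or-1 (edgeR adjusted p = 0.00992) and -1.34 ± 0.46 in Rak-2 (edgeR adjusted p = 0.0807, not called, while DESeq2 called it with -1.33 and an adjusted p of 0.0226), and the difference was 3.44 ± 0.65 (edgeR adjusted p = 0.0309). GSTU11 (AT1G69930) had 32.9, 31 and 15.3 CPM in Or-1 under NH4+, against 6.4, 6.59 and 1.5 CPM in Or-1 under NO3-, and 10.8, 8.47 and 6.91 CPM in Rak-2 under NH4+, against 19.3, 15.6 and 12.6 CPM in Rak-2 under NO3-. It showed the same opposite arrangement of groups, with 2.46 ± 0.47 in Or-1, -0.86 ± 0.45 in Rak-2 (not called) and a difference of 3.32 ± 0.65 (edgeR adjusted p = 0.0343). Replicate 3 was the lowest library of GSTU11 in every group.

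The 7 differences were not equally stable. GSTF2, GSTF3 and GSTF7 were called in each of the 12 fits that left out 1 library. The call of GSTF6 was lost in 8 of these fits, with edgeR adjusted p from 0.0541 to 0.0764, and was made without replicate 1 of Or-1 under NH4+, without replicates 1 or 3 of Or-1 under NO3- and without replicate 3 of Rak-2 under NO3-. GSTU11 lost it in 7 fits (0.0532 to 0.102), which left out replicates 1 or 2 of Or-1 under NH4+, any library of Rak-2 under NH4+, or replicates 1 or 2 of Rak-2 under NO3-. GSTU12 lost it in 7 fits (0.0555 to 0.0966), which left out replicate 2 of either Or-1 group, any library of Rak-2 under NH4+, or replicates 1 or 2 of Rak-2 under NO3-. GSTL1 lost it in 10 fits (0.0722 to 0.127) and was called without replicate 1 of Or-1 under NH4+ or without replicate 3 of Rak-2 under NO3-. The log2 difference over these fits was 2.47 to 3.22 for GSTF6, 2.89 to 3.61 for GSTU11, 3.06 to 3.83 for GSTU12 and 1.57 to 2.18 for GSTL1. The number of members with a called difference was 3 without replicate 2 of Or-1 under NH4+, any 1 library of Rak-2 under NH4+ or replicate 1 or 2 of Rak-2 under NO3-, and 4 without replicate 2 of Or-1 under NO3-. Under glmTreat, GSTF3 alone was called.

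**Figure D3:**
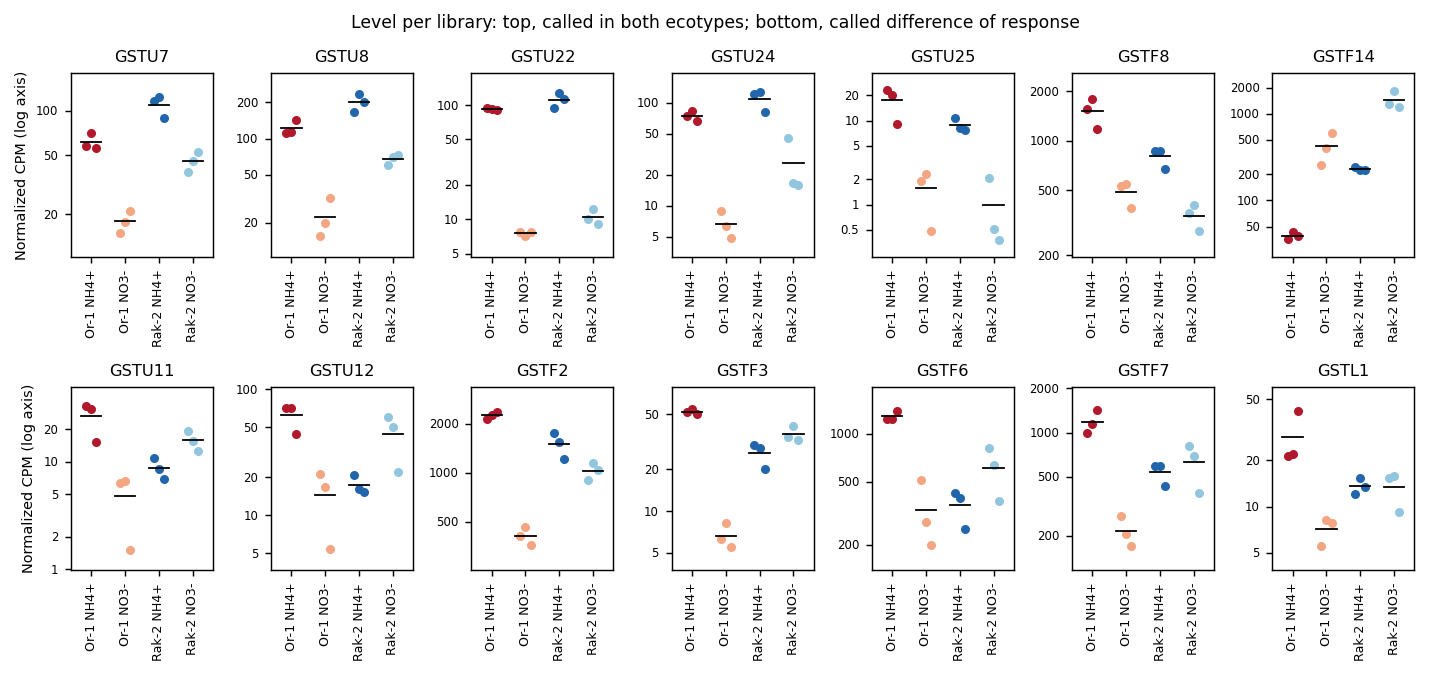
TMM-scaled CPM per library on log axes (y axis) for the members called in both ecotypes (top row) and those with a called difference of response (bottom row), in the 4 groups (x axis). Points are the 3 libraries of a group in the order of replicate number and bars are group means. In the top row NH4+ lies above NO3- in both ecotypes (below it for GSTF14), and in the bottom row the 2 groups of Or-1 are far apart while those of Rak-2 lie closer together or, for GSTU11, GSTU12 and GSTF3, are turned round without overlap.

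Several further tau genes were called in Or-1 alone, and edgeR called no difference of response for them. GSTU1 (AT2G29490) rose to 68.8 to 76.4 CPM in Or-1 under NH4+, against 19.7 to 31.9 CPM under NO3- (log2 fold change 1.49 ± 0.18, with 0.49 ± 0.17 in Rak-2). Its difference of 1.00 ± 0.24 was not called (edgeR adjusted p = 0.0755), whereas DESeq2 called it (1.02, adjusted p = 0.00442). GSTU3 and GSTU15 rested on few reads. GSTU3 (AT2G29470) had 0.778, 0.82 and 1.12 CPM in Or-1 under NH4+, against 0.0551, 0.0532 and 0.132 CPM in Or-1 under NO3-. These values stand for 55 counts in all under NH4+ and 5 under NO3-, a ratio of 10.8 after scaling with a 95% interval of 4.36 to 34.6 (exact Clopper-Pearson, counting error only). The fitted log2 fold change was 3.35 ± 0.81 (edgeR adjusted p = 0.0158), and the call was lost without replicate 1 or 2 of Or-1 under NO3- (0.0553 and 0.0683). Only the Or-1 libraries under NH4+ held 10 or more counts of GSTU3, so it passed the filter through the group where it is high. Its calls as higher, in Or-1 and between the ecotypes under NH4+, share that group with the filter and are included in the counts of called members. GSTU15 (AT1G59670) had 0.535, 0.41 and 0.486 CPM in Or-1 under NH4+, against 0, 0.0532 and 0.0882 CPM in Or-1 under NO3-, that is 29 counts under NH4+ and 3 under NO3-, a ratio of 9.50 (2.95 to 48.8). GSTU16, its neighbour, whose protein is 74.8% identical, had 1.6 to 3.01 CPM in Or-1 under NH4+, against 0.0882 to 0.331 CPM under NO3- (3.19 ± 0.55). Its response in Rak-2 was 0.06 ± 0.50, and the difference of 3.13 ± 0.75 was not called (edgeR adjusted p = 0.0697), whereas DESeq2 called it (3.18, adjusted p = 0.00483).

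GSTU26 and GSTF13 were lower under NH4+ in Or-1 alone. GSTU26 (AT1G17190), the neighbour of GSTU24 and GSTU25, measured 10.9, 9.79 and 4.52 CPM in Or-1 under NH4+, against 28.1, 29.2 and 25.5 CPM in Or-1 under NO3-, and 5.27, 5.18 and 5.58 CPM in Rak-2 under NH4+, against 4.67, 7.8 and 3.01 CPM in Rak-2 under NO3-. It thus moved against both neighbours in Or-1 (log2 fold change -1.72 ± 0.34, edgeR adjusted p = 0.00572) while its Rak-2 groups overlapped (0.04 ± 0.35). GSTF13 (AT3G62760) measured 6.32, 4.41 and 2.67 CPM in Or-1 under NH4+, against 13.7, 13.9 and 9.35 CPM in Or-1 under NO3-, and 4.57, 3.87 and 4.7 CPM in Rak-2 under NH4+, against 3.98, 3.62 and 1.26 CPM in Rak-2 under NO3-. Its fall in Or-1 (-1.46 ± 0.40, edgeR adjusted p = 0.0284) was not called without replicate 2 or 3 of Or-1 under NH4+ (0.0929 and 0.0909) or without replicate 1 or 2 of Or-1 under NO3- (0.0751 and 0.0856). For both genes the highest values of the series were those of Or-1 under NO3-.

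The next comparison set the 2 ecotypes side by side under NH4+. Of the 41 members, 9 were higher in Or-1 than Rak-2 and 3 lower, beside 6.55% of all tested genes higher and 5.66% lower. The median log2 ratio of the members was -0.02, against 0.00 over all genes. The groups did not overlap for 25 members, as for 48.8% of all genes. The 9 higher genes were GSTU1, GSTU3, GSTU9, GSTU11, GSTU12, GSTF3, GSTF6, GSTF7 and GSTL1, and the 3 lower ones GSTU6, GSTU14 and GSTF14. GSTF6 was at 1244, 1251 and 1389.8 CPM in Or-1, against 426, 394 and 253 CPM in Rak-2 (log2 ratio 1.86 ± 0.36, edgeR adjusted p = 0.00362). GSTU12 was at 71, 71.3 and 44.2 CPM in Or-1, against 20.9, 16.2 and 15.3 CPM in Rak-2 (1.83 ± 0.46, edgeR adjusted p = 0.0148). For both, each Or-1 library exceeded each Rak-2 library. All 8 tested shoot photosynthesis markers were lower in Or-1 in this comparison (median log2 ratio -1.74), with 1 of them called. Their part in these results was not tested.

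GSTU6 and GSTU14 were lower in Or-1 under both nitrogen sources. GSTU6 (AT2G29440) had 3.6, 2.51 and 1.12 CPM in Or-1 under NH4+, against 10.2, 9.52 and 10.14 CPM in Rak-2 under NH4+, and 3.14, 1.65 and 2.52 CPM in Or-1 under NO3-, against 3.7, 7.98 and 9.73 CPM in Rak-2 under NO3-. Its log2 ratio was -2.05 ± 0.43 under NH4+ (edgeR adjusted p = 0.00601) and -1.55 ± 0.43 under NO3- (edgeR adjusted p = 0.0337). The call under NO3- was lost without replicate 2 or 3 of Or-1 under NO3- (0.125 and 0.0847) or of Rak-2 under NO3- (0.0882 and 0.0960). GSTU14 (AT1G27140) had 143, 147 and 119 CPM in Or-1 under NH4+, against 309, 300.3 and 243 CPM in Rak-2 under NH4+, and 81.9, 97 and 91.1 CPM in Or-1 under NO3-, against 252, 262 and 293 CPM in Rak-2 under NO3-. Its groups were apart by -1.06 ± 0.13 under NH4+ and -1.58 ± 0.14 under NO3-, and the value under NH4+ passed -1 narrowly (-0.97 without replicate 3 of Or-1 and -0.99 without replicate 1 of Rak-2). GSTU9 (AT5G62480) was higher in Or-1 under both sources (1.33 ± 0.28 under NH4+ and 1.48 ± 0.28 under NO3-), with 29.9 to 53 CPM in Or-1, against 13.8 to 20.2 CPM in Rak-2 under NH4+. None of these 3 genes was called for a response to NH4+ in either ecotype.

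Of the 12 calls between the ecotypes under NH4+, 5 (GSTU1, GSTU6, GSTU9, GSTF6 and GSTF14) were made in each fit that left out 1 of the 6 libraries. GSTU3 (0.778, 0.82 and 1.12 CPM in Or-1, against 0.0502, 0.0523 and 0.441 CPM in Rak-2) was called only without replicate 3 of Rak-2 (0.0706 to 0.15 in the other fits), GSTU11 only without replicate 3 of Or-1 (0.0551 to 0.0904), GSTU12 not without replicate 2 or 3 of Rak-2 (0.0566 and 0.0547), and GSTL1 not without replicate 3 of Or-1 or replicates 1 or 3 of Rak-2 (0.0851, 0.0796 and 0.0645). GSTF3 fell under the fold threshold without replicate 2 of Or-1 or replicate 3 of Rak-2 (0.98 and 0.85). GSTF7 did so without replicate 3 of Or-1 (0.99), and it missed the adjusted p without replicate 3 of Rak-2 (0.0502). None of these fits made all 9 calls of members higher in Or-1, and the number called higher was 4 without replicate 3 of Rak-2 under NH4+. In this comparison the deviations of same-numbered libraries correlated at 0.216 to 0.336. With the replicate number as a block GSTU20 (-1.03, edgeR adjusted p = 0.0417) and GSTU21 (-1.49, edgeR adjusted p = 0.0173) were also called lower in Or-1, which made 5 in place of 3. Without the block GSTU21 missed narrowly (-1.39, edgeR adjusted p = 0.0553), and it was called under other settings given at the end.

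The same comparison was made under NO3-. Of the 41 members, 12 were lower in Or-1 than Rak-2 and 3 higher, beside 4.29% of all tested genes lower and 4.35% higher. The median log2 ratio of the members was -0.25, against -0.02 over all genes. The groups did not overlap for 21 members, as for 26.2% of all genes. The 12 lower genes were GSTU6, GSTU7, GSTU8, GSTU11, GSTU12, GSTU14, GSTU15, GSTU24, GSTF2, GSTF3, GSTF7 and GSTF14, and the higher ones GSTU9, GSTU26 and GSTF13. With the 6 NO3- libraries fitted alone, 7 members were called lower. That fit lost the calls of GSTU6 (edgeR adjusted p = 0.0859), GSTU11 (0.112), GSTU12 (0.151) and GSTU24 (-1.95, 0.0522), and GSTU15 was not tested in it. GSTU15 was at 0, 0.0532 and 0.0882 CPM in Or-1, against 0.209, 0.376 and 0.602 CPM in Rak-2, or 3 counts against 22, a ratio of 0.123 (0.0236 to 0.411). Its call was lost without replicate 2 of Or-1 (0.0585) or replicate 3 of Rak-2 (0.0541). The log2 ratio was -2.44 ± 0.19 for GSTF3 (edgeR adjusted p = 6.75e-06) and -1.94 ± 0.39 for GSTU24 (edgeR adjusted p = 0.00597). For the higher genes it was 2.41 ± 0.35 for GSTU26 (edgeR adjusted p = 0.00072) and 2.06 ± 0.41 for GSTF13 (edgeR adjusted p = 0.00542), and none of the groups of these 4 genes overlapped. The call of GSTU11 was lost without replicate 1 or 2 of Rak-2 (0.0677 and 0.0663), and that of GSTU12 without replicate 2 or 3 of Or-1 or replicate 1 or 2 of Rak-2 (0.0848, 0.0663, 0.0971 and 0.101).

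Some genes with a called difference of response changed sides between the ecotypes. GSTF3, GSTF7, GSTU11 and GSTU12 stood below Rak-2 in Or-1 under NO3- and above it under NH4+. The Or-1 libraries under NO3- and those under NH4+ enter both the ecotype comparisons and the responses, so these calls share samples. The log2 ratio of Or-1 over Rak-2 under NH4+ and under NO3- was 1.01 and -2.44 for GSTF3, 1.14 and -1.55 for GSTF7, 1.60 and -1.72 for GSTU11, and 1.83 and -1.61 for GSTU12. For GSTF2 and GSTF3 summed, the ratio under NH4+ was 0.60 ± 0.17 and was not called.

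**Figure D4:**
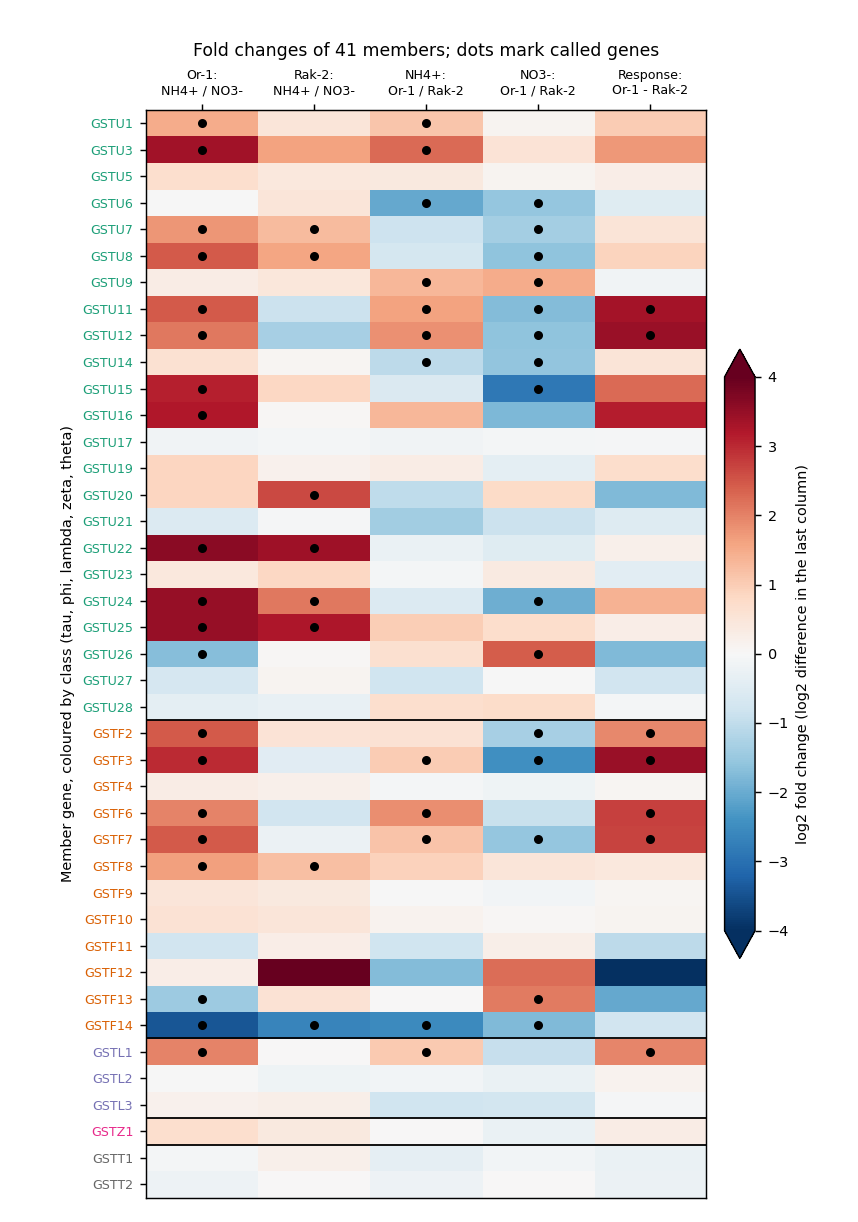
Log2 fold changes (colour) of the 41 tested members (rows, in class order and coloured by class) in the 5 comparisons (columns), where the colour scale ends at 4 in either direction and black dots mark called genes. The first 2 columns show 17 and 7 members called higher under NH4+, the fourth shows 12 called lower in Or-1 under NO3-, and the last shows the 7 differences of response, with most lambda, zeta and theta genes pale throughout.

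Neighbouring genes did not always respond alike. In the GSTU1 to GSTU7 cluster on chromosome 2, where 5 of 7 genes were analysed here, GSTU1, GSTU3 and GSTU7 were higher under NH4+ in Or-1 while GSTU5 (0.68) and GSTU6 (-0.01) were not called. In the GSTU19 to GSTU23 cluster, GSTU22 was called in both ecotypes, GSTU20 in Rak-2, and GSTU19, GSTU21 and GSTU23 in neither. The GSTU24 to GSTU26 cluster held 2 genes that rose and 1 that fell in Or-1. Proteins encoded within a cluster were 35.8% to 93.3% identical (median 65.2% over 47 pairs), where the lowest value is that of GSTT1 with 245 residues and GSTT2 with 591, against 13.7% to 26.8% between tau and phi members. All pairs within the tau class, in a cluster or not, were 26.0% to 81.3% identical (median 38.6%), and all within the phi class 28.5% to 93.3% (median 38.8%). In GSTU11 and GSTU12, GSTU15 and GSTU16, and GSTF6 and GSTF7, both neighbours rose in Or-1.

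The lambda, zeta and theta members were low to moderate in level and mostly steady. GSTL1 (AT5G02780) measured 21.2, 22.1 and 42.1 CPM in Or-1 under NH4+, against 5.57, 8.19 and 7.81 CPM in Or-1 under NO3-, and 12.1, 15.5 and 13.4 CPM in Rak-2 under NH4+, against 15.3, 15.9 and 9.3 CPM in Rak-2 under NO3-. It rose in Or-1 (log2 fold change 1.99 ± 0.30, edgeR adjusted p = 0.00106), against 0.02 ± 0.29 in Rak-2, with a difference of 1.97 ± 0.41 (edgeR adjusted p = 0.0438), and replicate 3 of Or-1 under NH4+ was well above the other two. Its neighbour GSTL3 (AT5G02790) measured 13.5, 14.5 and 21.3 CPM in Or-1 under NH4+, against 9.54, 13.1 and 20.7 CPM in Or-1 under NO3-, and 28.5, 24.9 and 31.9 CPM in Rak-2 under NH4+, against 17.4, 26.9 and 28.7 CPM in Rak-2 under NO3-. GSTL2 (AT3G55040) measured 9.97, 10.8 and 12 CPM in Or-1 under NH4+, against 7.72, 12.5 and 12.9 CPM in Or-1 under NO3-, and 10.2, 13.7 and 11.3 CPM in Rak-2 under NH4+, against 11.2, 14.7 and 13.6 CPM in Rak-2 under NO3-. Within each ecotype the groups of GSTL3 and of GSTL2 overlapped, and no comparison was called for them. GSTZ1 (AT2G02390), maleylacetoacetate isomerase of tyrosine breakdown, measured 167, 170.0 and 152 CPM in Or-1 under NH4+, against 102, 97 and 108 CPM in Or-1 under NO3-, and 178, 178 and 127 CPM in Rak-2 under NH4+, against 147, 124 and 101 CPM in Rak-2 under NO3-. Its Or-1 groups were apart, with a log2 fold change of 0.67 ± 0.16 (edgeR adjusted p = 0.0153) that did not reach the fold threshold.

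The theta genes changed little. GSTT1 (AT5G41210) measured 69, 68.4 and 60.3 CPM in Or-1 under NH4+, against 60.0, 67.5 and 79.4 CPM in Or-1 under NO3-, and 89, 88.9 and 75.4 CPM in Rak-2 under NH4+, against 70.5, 81.2 and 70.1 CPM in Rak-2 under NO3-. GSTT2 (AT5G41240) measured 19.5, 21.3 and 24.6 CPM in Or-1 under NH4+, against 22.8, 25.6 and 27.6 CPM in Or-1 under NO3-, and 24.7, 26.3 and 24 CPM in Rak-2 under NH4+, against 24.6, 22.8 and 27.4 CPM in Rak-2 under NO3-. All log2 fold changes of both genes over the 5 comparisons lay between -0.36 and 0.19, and their groups overlapped within each ecotype.

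In all, 24 of the 41 members were called in at least 1 of the 5 comparisons and 17 in none. The uncalled phi genes, apart from GSTF9 and GSTF10, were GSTF4 (6.49 to 14 CPM over the 12 libraries), GSTF11 (13.3 to 50.1 CPM) and GSTF12 (0 to 10.7 CPM). The uncalled tau genes were GSTU5, GSTU17, GSTU19, GSTU21, GSTU23, GSTU27 and GSTU28, of which some were called under alternative settings given at the end. GSTU17, known for a role in light and abscisic acid signalling, had 31.6 to 35.9 CPM in Or-1 under NH4+, against 36.8 to 37.5 CPM under NO3-. The log2 fold change of GSTU27 in Or-1 was -0.68 ± 0.17 (edgeR adjusted p = 0.0178), inside the fold threshold.

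GSTF12, also called TRANSPARENT TESTA 19, is needed to bring anthocyanins into the vacuole, and its values scattered widely within groups. GSTF12 (AT5G17220) had 1.51, 0 and 3.16 CPM in Or-1 under NH4+, against 2.7, 0.266 and 0.927 CPM in Or-1 under NO3-, and 2.66, 2.35 and 10.7 CPM in Rak-2 under NH4+, against 0, 0.423 and 0.328 CPM in Rak-2 under NO3-. The Rak-2 groups were apart, but the log2 fold change of 4.27 ± 1.33 was not called (edgeR adjusted p = 0.0601), and it was called by DESeq2 (4.37, adjusted p = 0.00658) and when the 6 Rak-2 libraries were fitted alone (4.26, edgeR adjusted p = 0.0428). The photosynthesis marker sum was lowest in replicate 2 of Or-1 under NH4+ (4.56 CPM) and replicate 1 of Rak-2 under NO3- (14 CPM), the 2 libraries in which GSTF12 was at 0, and highest in replicate 3 of Rak-2 under NH4+ (1068 CPM), where GSTF12 was highest. The order did not hold throughout, since replicate 2 of Rak-2 under NH4+ had a lower marker sum (241 CPM) and more GSTF12 (2.35 CPM) than replicate 3 of Rak-2 under NO3- (446 CPM and 0.328 CPM). The difference of response of GSTF12 was -3.99 ± 1.74 and was not called (edgeR adjusted p = 0.258). The part of shoot tissue in the GSTF12 values was not tested.

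Genes that supply glutathione or carry its conjugates were taken as a list of 14, of which 12 were tested. In Or-1, 4 were higher under NH4+ and none lower, beside 5.26% and 3.6% of all tested genes, with a median log2 fold change of 0.46, against -0.04 over all genes. In Rak-2, 1 was higher and 1 lower, beside 2.69% and 3.4% of all tested genes, with a median of 0.09, against -0.01 over all genes. GSH1 (AT4G23100), the enzyme of the first step of glutathione synthesis, had 715, 767 and 632 CPM in Or-1 under NH4+, against 359.9, 327 and 283 CPM in Or-1 under NO3- (log2 fold change 1.12 ± 0.16, edgeR adjusted p = 0.00085), with 0.18 ± 0.16 in Rak-2. The vacuolar conjugate transporter ABCC2 (AT2G34660) rose in both ecotypes (1.89 ± 0.16 in Or-1 and 1.22 ± 0.15 in Rak-2). ABCC4 (AT2G47800) rose in Or-1 (2.04 ± 0.33). ABCC3 (AT3G13080) had 137, 161 and 148 CPM in Or-1 under NH4+, against 52.9, 57.2 and 29 CPM in Or-1 under NO3-, and 41.4, 37.9 and 54.1 CPM in Rak-2 under NH4+, against 41, 39 and 35.4 CPM in Rak-2 under NO3-. Its response was 1.68 ± 0.23 in Or-1, 0.21 ± 0.22 in Rak-2, and the difference of 1.48 ± 0.31 was just called (edgeR adjusted p = 0.0459), but was lost in 9 of 12 fits that left out 1 library (0.0542 to 0.140), all but those without replicate 2 or 3 of Or-1 under NO3- or replicate 3 of Rak-2 under NO3-. The lower gene of Rak-2 was GGT1 (-1.14 ± 0.30), a cell wall enzyme that cleaves glutathione, whose call was lost without any library of Rak-2 but replicate 3 under NO3- (0.0771 to 0.121). OXP1, a 5-oxoprolinase of glutathione recycling, was lower in Or-1 than Rak-2 under NH4+ (-1.49 ± 0.14) and under NO3- (-2.01 ± 0.14). ABCC3 was higher in Or-1 under NH4+ (1.74 ± 0.23) and ABCC4 lower in Or-1 under NO3- (-1.09 ± 0.32), the second not without replicates 2 or 3 of either NO3- group (0.0508 to 0.148).

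Of 5 tested GST-like genes outside the 47 members, none was called in a response. GSTZ2 (AT2G02380), the second zeta gene, was higher in Or-1 than Rak-2 under NH4+ (2.58, 3.74 and 2.72 CPM in Or-1, against 0.753, 0.523 and 0.833 CPM in Rak-2) and under NO3- (1.38, 2.23 and 2.43 CPM in Or-1, against 0.349, 0.423 and 0.492 CPM in Rak-2). Of 9 tested regulators with a known link to GST genes, WRKY33 (AT2G38470), an activator of camalexin genes, was higher and TGA1 (AT5G65210), a TGA factor, lower under NH4+ in Or-1 (1.41 ± 0.41 and -1.11 ± 0.21), and none was called in Rak-2. WRKY33 was also higher in Or-1 than Rak-2 under NH4+ (1.96 ± 0.41). The call of the WRKY33 response in Or-1 was lost in 5 of 6 fits, all but that without replicate 2 of Or-1 under NO3-, with edgeR adjusted p from 0.0626 to 0.112, and TGA1 stood at -0.89 without replicate 3 of Or-1 under NO3-. TGA2, TGA5 and TGA6, the TGA factors best known for as-1 elements, were not called in any comparison.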

How the data were processed

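Roots of Or-1 and Rak-2 under NH4+ or NO3- were sequenced on an Illumina HiSeq from NEBNext Ultra libraries, with 3 biological replicates per group. The labels number the ecotypes and give their NH4+ tolerance, by which the study's names were assigned. The authors deposited unnormalized read counts per gene with gene lengths. The aligner, counter, strand setting and genome build are not given in the sources used here. The lengths equalled those of a RefSeq TAIR10.1 transcript for 81.4% of 25670 matched genes. The 3 deposited tables of the authors' own comparisons (fold changes and p-values) were not used. Counts of 26568 genes (3548 without a count, 694 assembled outside the annotation) were fitted in edgeR 4.0.16 (R 4.3.3) over all 12 libraries, with TMM scaling, filterByExpr (minimum count 10, minimum total 15), one term per group and the quasi-likelihood F test. P-values were adjusted over all 19327 genes by the Benjamini-Hochberg method. SEs were the absolute log2 fold change divided by the square root of F. DESeq2 1.42.0 was an alternative. The scripts were tested on simulated data. Members, set by class name, and gene lists were chosen with earlier results of these data known.

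Genes given values per library were the 5 with the largest absolute change among those called in each comparison with groups that do not overlap, the 3 highest tau and phi genes in RPKM, and all lambda, zeta and theta members. Called genes of the other lists were named, apart from 1 shoot photosynthesis marker called lower in Or-1 than Rak-2 under NH4+. Others named were chosen after their values were seen. Deviations from group means of same-numbered libraries correlated at 0.305, 0.296 and 0.445 between the Or-1 groups and at 0.216, 0.285 and 0.336 between the NH4+ groups, so for those comparisons the fit with the replicate number as a block is given where it changed a call of a member. No source names a shared culture or day, and p-values measure the spread between libraries. Library pairs within groups differed beyond sampling noise. Intervals cover counting error only, with a detection floor of 3 counts. Proteins were translated from RefSeq and aligned end to end, and all 47 members matched the annotation by identifier. A further promoter sequence is not reported here.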

Additional observations from a re-analysis of the deposited data

Results flagged for a closer look

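The NH4+ response of 7 members differed between the ecotypes by a test of the difference itself. The response of Or-1 minus that of Rak-2, on the log2 scale, was 3.45 for GSTF3, 3.44 for GSTU12, 3.32 for GSTU11, 2.74 for GSTF6, 2.69 for GSTF7, 1.97 for GSTL1 and 1.92 for GSTF2. Among the genes of glutathione supply and conjugate transport, the difference was 1.48 for ABCC3. All 8 were more positive in Or-1, and the calls of GSTU11, GSTU12, GSTF6, GSTL1 and ABCC3 depended on single libraries as given above. The separate value of GSTF3, the minor gene of its near-identical pair, remains uncertain.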

How the results depend on the processing

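No value changed direction past a threshold under any alternative run. Of the values of called members under the alternatives, 886 stayed called and 125 did not, and of those of members not called, 2399 stayed so and 49 became called. Settings changed the counts of called members as follows. Of the 17 members higher in Or-1, glmTreat lost the calls of GSTU1, GSTU3, GSTU12, GSTU15 and GSTF6. The adjusted p alone added GSTU14, GSTU19 and GSTZ1 as higher in Or-1, GSTU27 as lower in Or-1 and GSTU23 as higher in Rak-2. It also added GSTU28, GSTF2 and GSTF8 as higher in Or-1 than Rak-2 under NH4+. Under NO3- it added GSTU28 as higher and GSTU22 as lower in Or-1 than Rak-2. With glmTreat, which tests against the fold threshold, the count was 1 lower in Or-1 (against 3), 2 higher in Rak-2 (against 7), 0 higher and 1 lower in Or-1 than Rak-2 under NH4+ (against 9 and 3), 1 higher and 3 lower under NO3- (against 3 and 12), and 1 with a more positive response in Or-1 (against 7). With DESeq2, 2 members were lower in Rak-2 (against 1, with GSTU12 added), 5 lower in Or-1 under NH4+ (against 3) and 3 had a more negative response in Or-1 (against 0), and it also called GSTF12 higher in Rak-2 (4.37), GSTU16 higher in Or-1 under NH4+ (1.34) and lower under NO3- (-1.84), and the responses of GSTU1 and GSTU16 more positive in Or-1 (1.02 and 3.18). The adjusted p alone gave 6 lower under NH4+, and the 6 NO3- libraries fitted alone gave 7 lower under NO3-. The replicate block gave 2 lower in Rak-2 (GSTU12, -1.21, added), 5 lower under NH4+ and 2 with a more negative response (GSTU26 and GSTF13 added), and it also called GSTF12 higher in Rak-2 (3.95, edgeR adjusted p = 0.0471) and the response of GSTU1 more positive in Or-1 (1.00, edgeR adjusted p = 0.0361). Replicate numbers were not read as pairs in Rak-2 or under NO3-, where correlations of same-numbered libraries were 0.137, -0.03 and 0.303, and 0.495, 0.047 and 0.541. For replicates 1 and 3 under NO3- they exceeded those under NH4+ (0.216, 0.285 and 0.336). Differently numbered libraries were not correlated, so whether the numbers pair libraries was not settled. The block changed no call of a member in Or-1 or between the ecotypes under NO3-. The causes of these changes were not tested. Leaving out 1 library at a time gave 16 to 18 higher and 2 to 3 lower in Or-1, 7 to 8 higher and 1 to 2 lower in Rak-2 (2 without replicate 3 under NO3-), 4 to 7 higher and 2 to 4 lower in Or-1 under NH4+, 3 to 4 higher and 9 to 13 lower under NO3-, and 3 to 8 more positive and 0 more negative responses. GSTL1 lost its difference with upper-quartile scaling (edgeR adjusted p = 0.0518) and with library size alone (0.0549). GSTF3 stood at 0.92 and 0.93 on the log2 scale between the ecotypes under NH4+ with these scalings, inside the fold threshold. GSTU3 lost its call under NH4+ with library size alone (0.0537), without the filter (0.0533) and by DESeq2 (0.0515). With 3 libraries per group and few reads for GSTU3, GSTU15 and GSTF5, small differences were not detectable.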
